A study of Drosophila melanogaster with 6 samples.

Results

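The genes described here make, degrade and answer to juvenile hormone in Drosophila melanogaster. They were taken by name. A probeset is a set of short probes on the array that reads 1 or more transcripts. It was a member if its only gene symbol in the platform annotation was jhamt, Jhe, Jhedup, Jheh1, Jheh2, Jheh3, Met, gce or Kr-h1. Of these 9 genes, 7 had such a probeset, 8 probesets in all among the 18952 on the array, and gce had 2. Jheh1 and Jheh3 are not listed under a probeset of their own in that annotation and were not analysed here.

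Whole female third-instar larvae that lacked both roX RNAs were set against mutant larvae to which a roX1 transgene had been returned. The mutants are labelled roX1SMC17ADf(1)52; [w+4D4.3], which combines a roX1 mutation, the X-chromosome deficiency Df(1)52 and a transgene marked w+. The controls carry all of these and in addition [hsp83-roX1+], roX1 under the promoter of the heat shock gene Hsp83, so they are a rescue of the mutant and not a wild-type strain. Each group had 3 Affymetrix Drosophila Genome 2.0 arrays, and each array received RNA from an independent preparation of 50 larvae. The labels give no hours within the third instar.

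Juvenile hormone is a sesquiterpenoid made in the corpora allata, endocrine cells that form part of the ring gland in fly larvae, and in larvae it acts against metamorphosis. Its level is set by synthesis, in which jhamt encodes the methyltransferase of a late step, and by breakdown through esterases and epoxide hydrolases. The hormone binds the bHLH-PAS receptors Met and gce, which activate Kr-h1, a zinc finger transcription factor that represses metamorphic genes. The roX RNAs belong to the complex that raises transcription from the X chromosome in males, and the comparison asks what their loss does in females, where Met and gce are X-linked genes.

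None of the 6 member probesets that could be tested differed between mutant and control females after adjustment. The 2 members with the smallest p-values, jhamt for synthesis and Jhe for breakdown, were both higher on all 3 mutant arrays than on all 3 control arrays, by 1.30-fold and 1.36-fold, and neither passed. The receptor gene Met and the response gene Kr-h1 had lower mutant means with overlapping groups. The test was limma's moderated test across 11262 probesets and the false discovery rate adjustment of Benjamini and Hochberg, and a probeset was called when its adjusted p was under 0.05. It called 0 of the 6 members and 62 probesets in all, which is 0.551% of those tested. At an unadjusted limma p under 0.05 there were 2 of 6 members, jhamt and Jhe, both higher in the mutants, against 4.30% of all tested probesets in that direction. Groups that did not overlap were found for 3 of 6 members, all with the mutants above the controls, and in that direction for 7.00% of all tested probesets. In either direction, 1014 of the 11262 tested probesets had an unadjusted limma p under 0.05 and 1839 had groups that did not overlap. Of the 6 members, 4 had higher and 2 had lower mutant means, against 5359 higher and 5903 lower of all 11262 tested probesets. The members' log2 differences had a median of 0.23, and those of all tested probesets had a median of -0.0086.

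**Figure D1:**
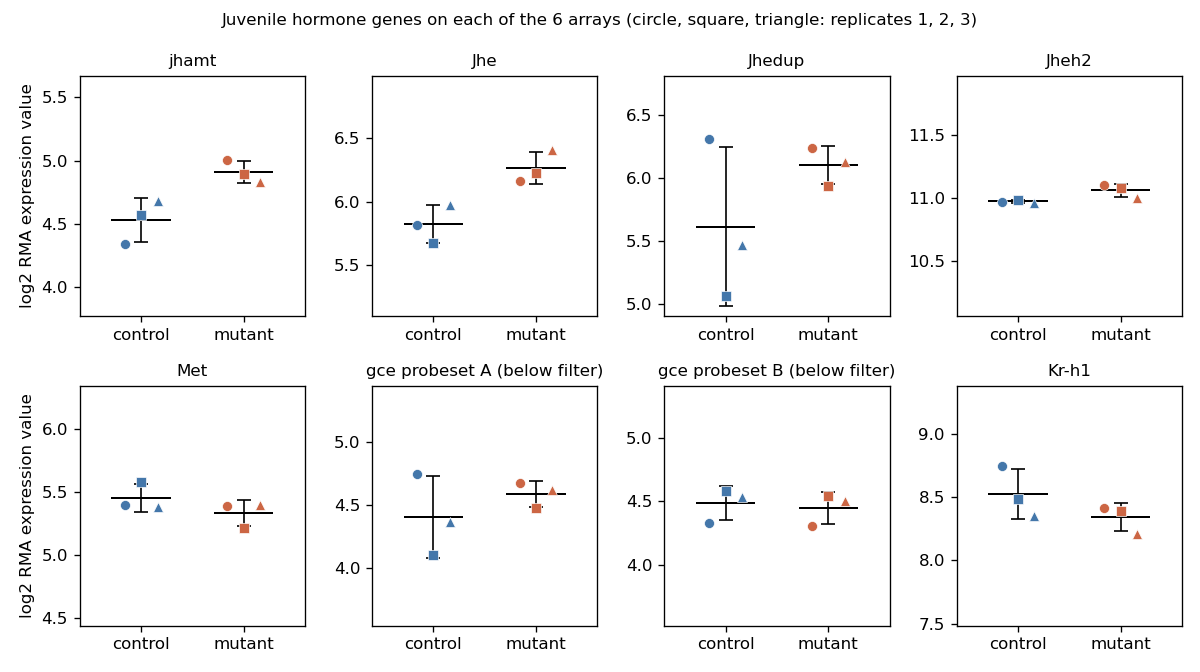
Log2 RMA expression value (vertical axis) of each member probeset on the 3 control and 3 mutant arrays, with the group mean (line) and SD (bar); every panel spans the same number of log2 units. The 3 mutant values lie above the 3 control values for jhamt, Jhe and Jheh2, and control replicate 1 stands far above the other controls for Jhedup.

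For synthesis, the jhamt probeset had low levels on all 6 arrays, and the mutants were the higher group. Log2 levels were 5.01, 4.89 and 4.83 on mutant replicates 1, 2 and 3 and 4.34, 4.57 and 4.68 on control replicates 1, 2 and 3. The groups did not overlap, and the lowest mutant lay 0.15 above the highest control. The mean log2 level was 4.91 ± 0.089 in mutants and 4.53 ± 0.17 in controls (SD, n = 3 per group). The log2 difference, mutant minus control, was 0.38 (SE 0.11, 95% interval 0.13 to 0.63), with a limma p of 0.0096 and an adjusted p of 0.340. In fold terms the interval ran from 1.09 to 1.55. The control mean was close to 4.51, the lowest mean level of any tested probeset, so the size of the fold is uncertain. With control replicate 1, the lowest array, left out, the log2 difference was 0.29.

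These are levels in whole larvae, in which fewer cells of a type and less RNA per cell cannot be told apart. The hormone-making cells share the ring gland with the cells that make ecdysone, and of 4 ecdysone synthesis genes taken as markers of that gland, 3 were tested. Log2 differences were 0.11 for sad, -0.082 for spok and -0.16 for dib, and the limma adjusted p-values of these genes lay between 0.708 and 0.861. The log2 of their summed level ran from 8.82 to 9.08 in mutants and from 8.87 to 9.08 in controls, which overlapped. The fourth, nvd, lay below the level filter. All 4 are genes of the ecdysone-making cells, so they do not count the hormone-making cells. The part of cell number in the jhamt difference was not tested.

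For breakdown by esterases, Jhe had the smallest p of the members. It encodes juvenile hormone esterase, which splits the methyl ester of the hormone. Log2 levels were 6.16, 6.23 and 6.41 on mutant replicates 1, 2 and 3 and 5.82, 5.67 and 5.98 on control replicates 1, 2 and 3. Again the groups did not overlap, with a gap of 0.19 between the lowest mutant and the highest control. Means were 6.27 ± 0.13 in mutants and 5.82 ± 0.15 in controls (SD, n = 3 per group). The log2 difference was 0.44 (SE 0.11, 95% interval 0.19 to 0.70), and the interval in fold terms ran from 1.14 to 1.63. The limma p was 0.0049 and the adjusted p 0.258. The probeset was 213th of 11262 by p. At its SE, a log2 difference of 0.74, or 1.67-fold, would have been needed for a call.

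Fat body, a main source of juvenile hormone esterase in insects, was read from 4 marker genes. All 4 had higher mutant means and none passed, with log2 differences of 0.47 for FASN1, 0.43 for Desat1, 0.28 for Fbp1 and 0.026 for Lsp2. Fbp2, a fat body gene read with the stage markers, had 0.030 (limma adjusted p = 0.927). Of all 8883 genes tested by their brightest probeset, 4331 had higher mutant means. The log2 of the summed level of the 4 markers ran from 15.3 to 15.4 in mutants and from 15.1 to 15.2 in controls. This sum is made up mostly of Lsp2, at 14.1 to 14.2, and Fbp1, at 13.5 to 14.0. Levels of Lsp2 were close to the highest on each array, and Fbp1 is also read below as a stage marker. The means of the fat body markers and of Jhe were higher in the same group, and the part of these markers in the Jhe difference was not tested.

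Jhedup, the neighbour of Jhe on chromosome arm 2R and a related esterase gene, varied more between controls than between groups. Log2 levels were 6.23, 5.94 and 6.12 in mutants and 6.30, 5.07 and 5.47 in controls. Control replicate 1 was the highest of all 6 arrays and the other controls were the lowest, so the groups overlapped. The log2 difference was 0.48 (SE 0.29, 95% interval -0.22 to 1.18; limma adjusted p = 0.675), the largest point estimate among the members and the least precise. Without control replicate 1 it was 0.83, with a limma p of 0.0014 and an adjusted p of 0.0997, which did not pass, and without control replicate 2 it was 0.21. On control replicate 1 the Jhe level lay between those of the other controls, so the neighbouring genes did not share this deviation.

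For breakdown by epoxide hydrolases, Jheh2 was the only 1 of the 3 Jheh genes read here. These enzymes open the epoxide ring of the hormone, and the 3 genes lie next to each other on 2R. Log2 levels were 11.10, 11.07 and 11.00 in mutants and 10.97, 10.98 and 10.96 in controls, and the lowest mutant exceeded the highest control by 0.019. This was the tightest member, with SDs of 0.053 and 0.0089. Its log2 difference was 0.087 (SE 0.068; limma adjusted p = 0.734), and its 95% interval, from 0.949-fold to 1.19-fold, bounds any change more closely than for another member.

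**Figure D2:**
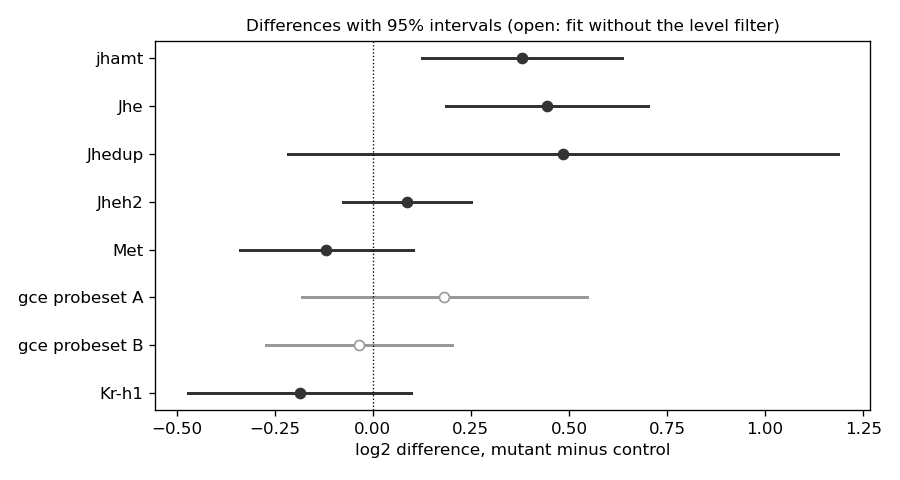
Log2 difference, mutant minus control (horizontal axis), with its 95% limma interval for each member probeset; filled points were tested, and the open gce points come from the fit without the level filter. The intervals of jhamt and Jhe lie above 0, and those of Jhedup, Jheh2, Met, gce and Kr-h1 include 0.

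The receptor genes, the X-linked members, had log2 differences on both sides of 0. Log2 levels of Met were 5.39, 5.21 and 5.40 in mutants and 5.39, 5.58 and 5.38 in controls. Mutant replicate 2 was lowest and control replicate 2 highest, with the other 4 arrays within a narrow band. The log2 difference was -0.12 (SE 0.093, 95% interval -0.34 to 0.10; limma adjusted p = 0.734), which as a ratio of mutant to control is 0.790 to 1.07. For scale, 1394 tested X-linked genes had a median log2 difference of -0.037, with the middle 80% of them between -0.20 and 0.13, so Met lay within the range of most X-linked genes.

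Both gce probesets lay just under the level filter, with mean log2 levels of 4.49 and 4.47 over the 6 arrays, and were not tested in the main fit. Probeset A, the brighter one, had log2 levels of 4.67, 4.47 and 4.61 in mutants and 4.74, 4.10 and 4.37 in controls. Probeset B had 4.30, 4.54 and 4.50 in mutants and 4.33, 4.59 and 4.54 in controls. Groups overlapped on both, and control replicate 1 was the highest control on probeset A and the lowest on probeset B. In a fit of all probesets without the filter the log2 differences were 0.18 and -0.035, with limma adjusted p-values of 0.827 and 0.956. RefSeq lists 2 older gene models merged into gce; which of them each probeset reads was not analysed here. The difference between the probesets, A minus B, was 0.13 ± 0.22 in mutants and -0.083 ± 0.45 in controls (SD, n = 3 each). An exact permutation test, two-sided, gave p = 0.5, where 0.1 is the smallest possible.

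The response gene Kr-h1 had a lower mutant mean, in the opposite direction to jhamt, and did not pass. Log2 levels were 8.42, 8.39 and 8.21 in mutants and 8.74, 8.49 and 8.35 in controls. Control replicate 1 was highest and mutant replicate 3 lowest, and control replicate 3 lay below both of the other mutants. The means were 8.34 ± 0.11 and 8.53 ± 0.20 (SD, n = 3 per group). The log2 difference was -0.19 (SE 0.12, 95% interval -0.47 to 0.098; limma adjusted p = 0.692), a ratio of mutant to control between 0.721 and 1.07. Without control replicate 1 the log2 difference was -0.079, and with array weights, which count less an array that departs from its group, it was -0.053.

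**Figure D3:**
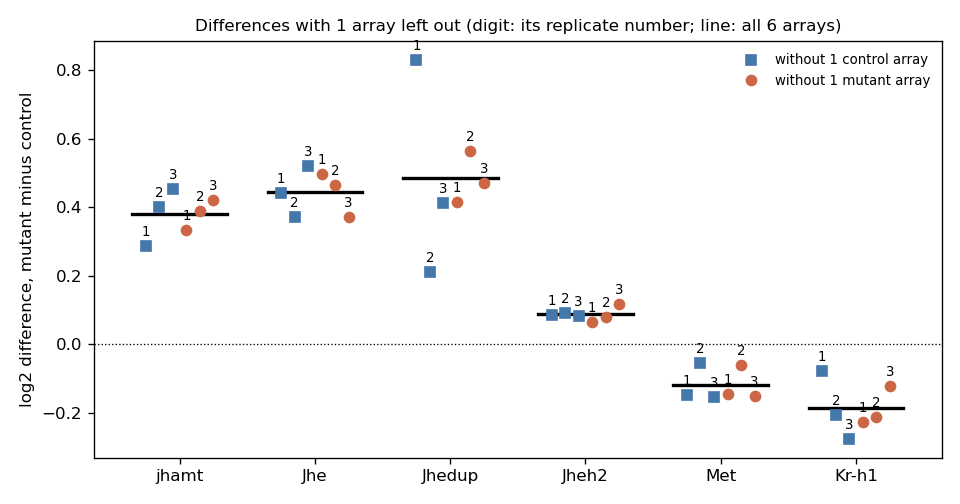
Log2 difference, mutant minus control (vertical axis), for each tested member with each array left out in turn; squares leave out a control array, circles a mutant array, digits give its replicate number and lines the value from all 6 arrays. Jhe stays between 0.37 and 0.52 and jhamt between 0.29 and 0.45, while Jhedup runs from 0.21 without control replicate 2 to 0.83 without control replicate 1.

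Genes around the pathway were read from 6 lists, and stage markers from a further one, each gene by its brightest tested probeset. None of the genes tested in these 7 lists was called in the fit of all 6 arrays. The median log2 difference of all 8883 genes tested in this way was -0.0049, and 47 of them, or 0.529%, were called. The first list held qm and genes of the mevalonate route, which supplies farnesyl diphosphate as the precursor. Of its 6 tested genes 0 were called, and the median was -0.0021. Mvd, for mevalonate diphosphate decarboxylase, had 0.17 (limma adjusted p = 0.578) and Idi, for isopentenyl diphosphate isomerase, had 0.12. The gene qm, for geranylgeranyl diphosphate synthase, had -0.23 and is not a step of the route to farnesyl diphosphate. No gene of this list had an unadjusted limma p under 0.05, and the log2 differences of the 6 genes ran from -0.23 to 0.17.

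Among peptides, receptors and growth factors that act on the corpora allata, 0 of 7 tested genes were called, with a median log2 difference of 0.027. Dh31-R, a receptor of the diuretic hormone Dh31, had -0.21, Mad, which carries the Dpp signal into the nucleus, had 0.075, and the peptide gene AstC, for allatostatin C, had 0.15; their limma adjusted p-values lay between 0.759 and 0.808. The glutamate receptor genes Nmdar1 and Nmdar2 lay below the filter.

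Of the genes named for juvenile hormone binding proteins, a family known best from the blood of moths, and the lipophorin gene apolpp, 0 of 10 were called, with a median log2 difference of 0.023. The 2 with an unadjusted p under 0.05 went opposite ways. Jhbp12 had log2 levels of 5.59, 5.28 and 5.38 in mutants and 5.84, 6.20 and 5.75 in controls, a log2 difference of -0.51 (limma adjusted p = 0.333). Jhbp5 had 6.64, 6.41 and 6.34 in mutants and 6.14, 6.19 and 6.10 in controls, a log2 difference of 0.32 (limma adjusted p = 0.403). Groups did not overlap on either gene, and 3 further genes of this list lay below the filter. Jhbp11 had a log2 difference of 0.15 (limma adjusted p = 0.663).

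Partners of the receptors had 0 of 4 genes called and a median log2 difference of -0.13. The nuclear receptor gene usp had -0.16, the coactivator gene tai, whose product pairs with Met, had -0.17 and Nup358, a nucleoporin gene, had -0.10, and their limma adjusted p-values lay between 0.663 and 0.837. All 4 tested genes had lower mutant means. ftz-f1, which encodes a nuclear receptor of the prepupal period, lay below the filter and was not tested. Its mean log2 level was 4.75 in mutants and 4.22 in controls, a log2 difference of 0.53 in the other direction, and its groups overlapped.

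Genes known to respond to the hormone or to Kr-h1 had 0 of 5 called and a median log2 difference of -0.13. The repressor gene hairy, named hry in RefSeq, had log2 levels of 10.71, 10.73 and 10.59 in mutants and 10.78, 10.76 and 10.94 in controls, with no overlap, a log2 difference of -0.15 (limma adjusted p = 0.652). RNaseZ, also known as JhI-1, had 0.10, and br, which encodes the Broad transcription factors of metamorphosis, had -0.13. JhI-26 had log2 levels of 9.72, 9.54 and 9.74 in mutants and 8.26, 10.3 and 9.99 in controls, so control replicate 1 was far below the other 5 arrays. Eip93F, the adult specifier gene that Kr-h1 represses, lay below the filter. The log2 of the summed level of the 5 tested genes ran from 12.60 to 12.72 in mutants and from 12.74 to 12.90 in controls. These ranges did not overlap, and br and hry make up most of the sum. The median of the 5 genes' log2 levels, each centred on its mean over the 6 arrays, did overlap. It ran from -0.17 to 0.055 in mutants and from -0.033 to 0.0066 in controls.

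The largest differences around the pathway were in carboxylesterase genes related to Jhe, and they went in opposite directions. Of 8 tested genes 0 were called and the median log2 difference was -0.039, with a range from -0.90 to 1.23. alpha-Est5 had log2 levels of 6.91, 6.83 and 6.72 in mutants and 7.35, 7.90 and 7.93 in controls, a log2 difference of -0.90 (SE 0.16; limma adjusted p = 0.106). alpha-Est7 had 9.31, 9.30 and 9.61 in mutants and 9.68, 10.5 and 10.2 in controls, a log2 difference of -0.71 (SE 0.20; limma adjusted p = 0.352). alpha-Est2 had 9.35, 9.87 and 10.4 in mutants and 7.91, 9.13 and 8.85 in controls, a log2 difference of 1.23 (SE 0.37; limma adjusted p = 0.387). The groups did not overlap on these 3 genes, and on each of them control replicate 1 had the lowest control level. alpha-Est5 passed in 2 of the alternative fits, without control replicate 1 (-1.09, limma adjusted p = 0.0077) and with array weights (-1.03, limma adjusted p = 0.0036). alpha-Est7 passed with array weights alone (-0.92, limma adjusted p = 0.0179).

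Because the hormone acts on the timing of metamorphosis, genes that switch within the third instar were read beside the members. Of 15 tested stage markers, 11 had higher and 4 lower mutant means, 0 were called, and the median log2 difference was 0.065. The smallest p belonged to MsrA, listed as the ecdysone-induced gene Eip71CD, with a log2 difference of 0.54 (limma adjusted p = 0.282, and 0.0450 with array weights, where it passed at 0.59), and to the fat body receptor gene Fbp1, with 0.28 (limma adjusted p = 0.485). ng1, an early salivary gland gene, had 0.73 (limma adjusted p = 0.699) with control replicate 1 at 9.43, against 11.2 to 11.7 on the other 5 arrays. The glue gene Sgs3 was at log2 levels from 14.0 to 14.2 on all 6 arrays. The log2 of the summed level of the 15 genes ran from 17.25 to 17.29 in mutants and from 17.15 to 17.25 in controls, with control replicate 1 the highest control. This sum is made up mostly of glue and fat body genes such as Sgs7, at 14.4 to 14.5, close to the highest level on each array, so it can show little of a difference in stage. The median of the 15 genes' log2 levels, each centred on its mean over the 6 arrays, ran from 0.036 to 0.078 in mutants and from -0.055 to 0.053 in controls, which overlapped.

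**Figure D4:**
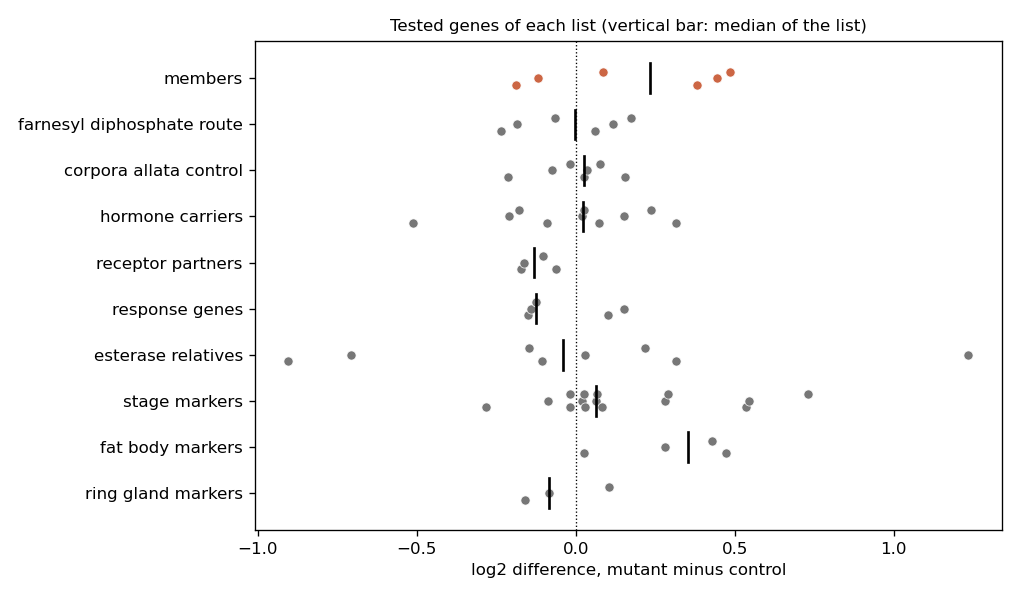
Log2 difference, mutant minus control (horizontal axis), of each tested gene, with the median of each list as a vertical bar. The members, the pathway and stage lists and the fat body and ring gland markers are drawn. Gut, muscle, neuron and male markers are not drawn. The medians of the pathway and stage lists lie between -0.13 and 0.065, the esterase relatives spread from -0.90 to 1.23, and all 4 fat body markers lie above 0.

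The genes whose log2 profiles over the 6 arrays were most like those of 3 members were found by the root mean square difference between profiles centred on their own means, among 9618 named tested probesets. Nearest to Kr-h1, whose profile had a root mean square of 0.16 around its mean, were jub (0.023), CG44774 (0.025) and Gal (0.026). Nearest to jhamt, with 0.22, were Pbgs (0.032), Timp (0.0598) and Hen1 (0.0600). Nearest to Jhe, with 0.25, were scrib (0.0736), CG31373 (0.0739) and ZnT35C (0.0766). These are descriptions over 6 arrays with no test.

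As for the arrays as a whole, median log2 levels lay between 5.41 and 5.45. The probesets of the male genes ORY and Mst84Da were low on all arrays, at 2.68 to 3.36, and Mst87F, a male germline gene, was at 6.98 to 7.32 in mutants and 7.59 to 7.87 in controls (limma adjusted p = 0.176). roX1, roX2, w and Hsp83 are not listed under a probeset of their own, so the level of the restored RNA does not check the labels. Gut markers held the only called gene of all lists, the lysozyme gene LysX, which fell by 1.86 on the log2 scale (limma adjusted p = 0.0015). The lists were chosen with earlier results of these data known, so this call is not an independent finding. The lysozyme gene LysP had a log2 difference of 1.21 (limma adjusted p = 0.0896) and the protease gene Jon65Aiv had -0.0088. The log2 summed level of these 3 genes did not overlap, at 14.39 to 14.48 in mutants and 14.55 to 14.64 in controls. The lower sum goes with LysX, as LysP was higher in mutants and Jon65Aiv nearly unchanged. Of 4 neuron markers 0 were called. Syn, for synapsin, had -0.43 with no overlap (limma adjusted p = 0.186), nSyb had 0.079 and brp had -0.098, and the log2 summed level was 7.52 to 7.70 in mutants and 7.72 to 7.86 in controls. Of 3 muscle markers 0 were called, with log2 differences of 0.70 for sls, 0.75 for Mlc2 and 0.0063 for up. The part of gut, neuron and muscle markers in the members' differences was not tested. Control replicate 1 stood apart on muscle markers, with a log2 summed level of 10.6 against 11.2 to 11.8 on the other 5 arrays, beside its departures on Jhedup, JhI-26 and ng1.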

How the data were processed

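The files hold a deposited log2 level for every probeset on every array. Per the labels' design text, the authors made these values with RMA, which corrects background, normalizes arrays and summarizes probes (robust multi-array average); its version is not given in the sources used here. Present and absent calls, on which that text says genes were filtered, are not part of the table used here, and a filter on level was applied in their place. RMA equalizes the distributions of the arrays, which would hide a shift common to most genes.

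The 183 control probesets and the 40% of the other 18769 that were dimmest on average were removed, leaving 11262 probesets to test. Mutant minus control was fitted with limma 3.58.1 (lmFit, eBayes, two-sided) in R 4.3.3, adjusted over all 11262, with no block. The step was tested on simulated data. The number of arrays, 3 against 3, limits the precision. Platform symbols were updated through gene numbers to RefSeq (Release 6 plus ISO1 MT), which gave names, chromosome arms and neighbours only; 13647 probesets had 1 symbol, 402 several and 4720 none listed. The genes and lists were chosen with earlier results of these data known. Named genes are all members, up to 3 genes of each list with the smallest p, and the 3 most similar profiles. JhI-26, Sgs3, Sgs7, Lsp2, Fbp2, ng2, alpha-Est10, ORY, Mst84Da and the genes given as below the filter were added outside this rule. The alternatives were no filter, a 60% filter, quantile normalization, array weights, a replicate block, a trended robust prior and leaving out each array. Figures were drawn with matplotlib 3.10.9.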

Additional observations from a re-analysis of the deposited data

How the results depend on the processing

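No member was called in any of the 12 alternative fits in which it was tested. The sign of each member's difference was the same in all 68 such values. The filters, the replicate block and the trended robust prior leave a log2 difference unchanged by design, so those values cannot bear on the sign. The smallest limma adjusted p was 0.0997, for Jhedup without control replicate 1. The 60% filter left Jheh2 and Kr-h1 as the only tested members. Called probesets over the whole array, 62 in the main fit, numbered 27 with the 60% filter, 232 with array weights and 28 with the replicate block, and between 12 and 84 with 1 array left out: 17, 12 and 27 without mutant replicates 1, 2 and 3, and 84, 31 and 20 without control replicates 1, 2 and 3. Called genes of the 6 pathway lists and the stage markers, tissue and male markers not counted, were 0 in the main fit and numbered 3 with array weights (alpha-Est5, alpha-Est7 and MsrA) and between 0 and 1 with 1 array left out (alpha-Est5 without control replicate 1). The cause of these changes was not tested. The labels give both groups replicates 1 to 3 without saying that numbers pair arrays. The main fit took no pairs, as the labels' design text states independent preparations. Deviations of same-numbered arrays from their group means correlated, across probesets, at 0.053, -0.19 and 0.32. Between arrays of different numbers these correlations ran from -0.29 to 0.21. With the replicate block no member was called, Jhedup having a limma adjusted p of 0.597 and Jhe one of 0.243. The difference between the gce probesets ranged from 0.016 without control replicate 2 to 0.46 without control replicate 1. Signals of jhamt and gce near the level filter limit what their folds can show.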

Other observations

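Control replicate 1 differed from the other controls on several genes of the pathway and its surroundings, in both directions. JhI-26, a gene first found as inducible by juvenile hormone, was lower there than the mean of control replicates 2 and 3 by 3.69-fold, ng2 by 6.37-fold, ng1 by 3.59-fold and alpha-Est10 by 2.49-fold. Jhedup was higher there by 2.05-fold. These genes were picked after their values were seen, and no test was run on them.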
